A study of Homo sapiens with 7 samples.

Results

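The 28 genes described here encode enzymes and regulators of cholesterol and fatty acid synthesis, and all 28 were found by symbol among the 20072 gene symbols of the deposited table. They fall into 7 enzymes of the mevalonate pathway, 9 of the sterol branch, 7 of fatty acid synthesis, 4 regulators and STARD4. The regulators are the SREBP transcription factor genes SREBF1 and SREBF2 with SCAP and INSIG1. STARD4 is a cytosolic sterol carrier that was counted with neither enzymes nor regulators. HCT116 is an established human colorectal carcinoma line, and its log-phase cells were split for 3 assays. Transcription rate (TR) was read by GRO-seq, in which engaged polymerases extend nascent RNA in isolated nuclei (2 libraries), mRNA abundance (RA) by RNA-seq (3 libraries) and translation activity (TA) by sequencing of polysome-associated mRNA (2 libraries). All groups share the same line, grown in serum-free McCoy's 5A medium with EGF, insulin and transferrin. The cells for TA alone were incubated with cycloheximide, which arrests elongating ribosomes, before polysomes were isolated, so TA differs from TR and RA in this drug as well as in the assay, and the effects of these cannot be told apart. For RA and TA mRNA was selected with a kit, whereas for TR run-on RNA of nuclei was purified with anti-BrdU beads. This difference goes with the assay, so its effect on ratios to TR cannot be told apart either.

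Cholesterol and other isoprenoids are built from acetyl-CoA by way of mevalonate and squalene, whereas fatty acids are built from the same precursor by carboxylation and repeated elongation. SREBP transcription factors, encoded by SREBF1 and SREBF2, drive many of these genes. SCAP escorts the SREBP precursors to the Golgi for cleavage when sterols are low, and INSIG1 retains the complex in the endoplasmic reticulum when sterols are high.

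Values were RPKM, reads per kilobase of exon scaled to a total per library, with the reads of all assays counted over exons. They are shares of that total and give no amount of RNA per cell, so a share also depends on the other RNAs of the library. Library sizes worked out from the values ran from 3391897 to 5629982 reads for TR, from 20299018 to 22532134 for RA and from 22421062 to 30805391 for TA. The paper describes these totals as mapped reads, but they lay close to the reads recovered on genes. Those were 3384946 for TR replicate 1, 20252745 for RA replicate 1 and 30726801 for TA replicate 1. The fewest reads on any member were 62, for NSDHL in TR replicate 1. The 5 epithelial markers EPCAM, KRT8, KRT18, KRT19 and CLDN4 lay between 50.3 and 2490 RPKM in every library. Of 7 markers of other cell types, PTPRC, CD3E, PECAM1, COL3A1, ALB and LYZ were under 1 RPKM in every library, and the fibroblast collagen COL1A1 lay between 3.33 and 18.9 RPKM.

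All 28 members were well above the threshold of 1 RPKM used to choose genes for testing, with a lowest value of 8.81 RPKM for FADS2 in TA replicate 1. The median member stood at 39.0 and 36.1 RPKM in the TR libraries, at 52.5, 58.9 and 57.1 RPKM in the RA libraries and at 62.7 and 54.9 RPKM in the TA libraries. SCD, the desaturase that makes monounsaturated fatty acids, was the highest member in every library. It was listed at 219 and 149 RPKM in TR, at 458, 397 and 394 RPKM in RA and at 445 and 353 RPKM in TA. The RA and TA libraries overlapped for SCD, and both lay above TR.

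**Figure D1:**
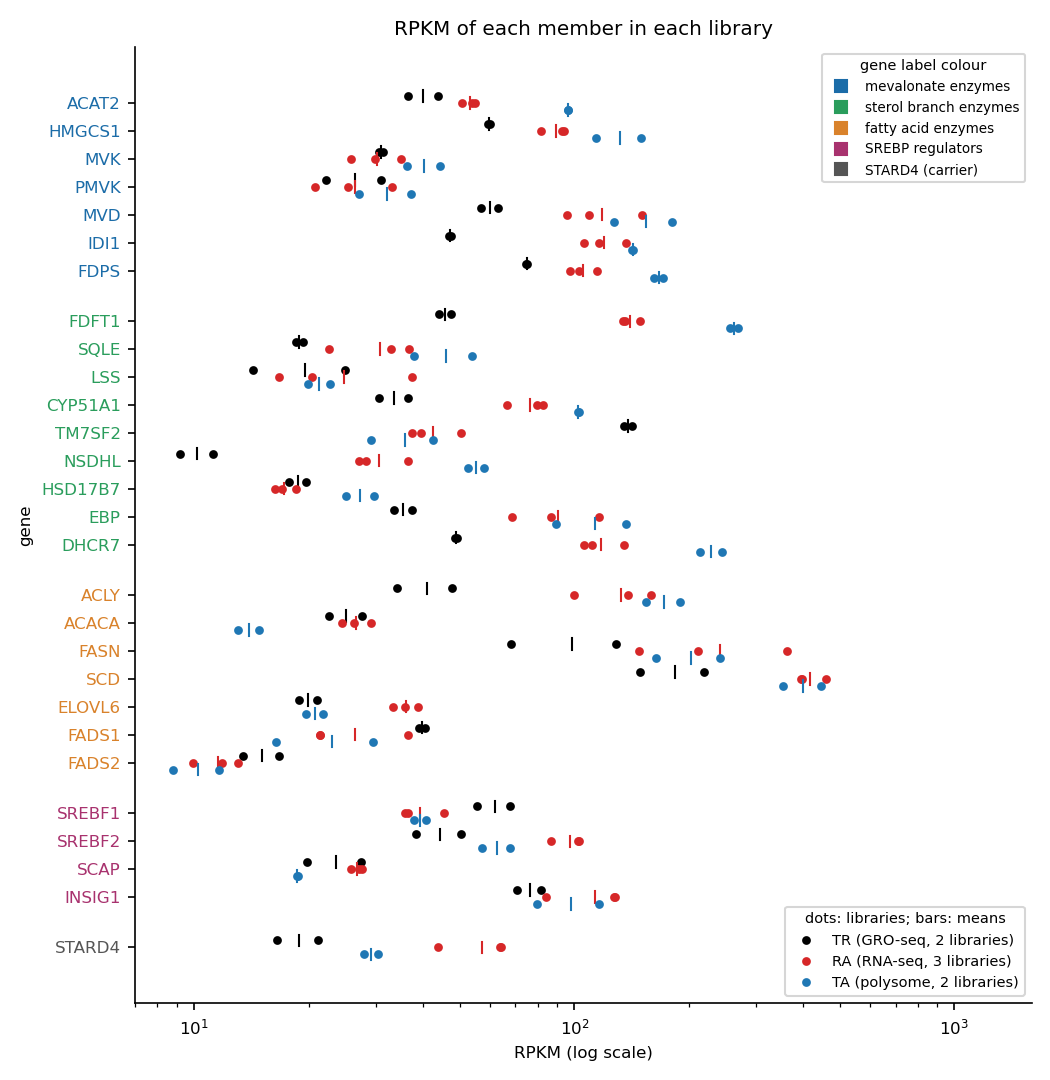
RPKM on a log axis for each of the 28 genes in the 2 TR (black), 3 RA (red) and 2 TA (blue) libraries, grouped by role, with dots for libraries and short bars for means. Most mevalonate and sterol branch genes step up from TR to TA, TM7SF2 steps down, and ACACA, ELOVL6, SREBF2 and STARD4 lie lower in TA than in RA.

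The first question was how mRNA abundance compares with transcription rate, the stability index of the study, log2(RA/TR). In limma on log2(RPKM + 0.1), 16 of the 28 members were called higher in RA than in TR at an adjusted p under 0.05, against 19.2% of the 14305 genes tested. Another 2, TM7SF2 and SREBF1, were called lower, against 48.0% of the genes tested, and 10 did not pass. The median log2 ratio of the members was 0.62, and that of all genes tested was -0.58. Over the 10825 genes with a mean of at least 1 RPKM in every parameter the median was -0.17. Of these, 2632 were called higher and 3656 lower in limma. Across the members log2 RA and this ratio, which holds RA itself, had a Pearson's r of 0.61 and a Spearman's rho of 0.70. The paper reports that RA tends to exceed TR in highly expressed genes, and the part of abundance here was not tested. When each library was centred on its own median, the median of all genes moved from -0.58 to 0.09, and 23 members were called higher and 1 lower, beside 35.4% and 33.7% of all genes. Ratios below are those of the uncentred values.

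In the mevalonate pathway 4 of 7 enzymes were higher in RA than in TR and none was lower, with a median log2 ratio of 0.48. IDI1, the isopentenyl diphosphate isomerase, was at 46.9 and 47.5 RPKM in TR and at 137, 106 and 116 RPKM in RA. That is a log2 ratio of 1.33 ± 0.18 (SE; adjusted p = 0.00029, limma), a 2.52-fold difference, and no RA library overlapped TR. MVD, which decarboxylates mevalonate diphosphate, gave 0.96 ± 0.25 (SE; adjusted p = 0.01, limma). HMGCS1, the HMG-CoA synthase, gave 0.58 ± 0.19, and FDPS, the farnesyl diphosphate synthase, 0.48 ± 0.17. The thiolase ACAT2 just missed the threshold at 0.41 ± 0.16 (SE; adjusted p = 0.052, limma). The kinases MVK and PMVK stood at -0.05 ± 0.19 and -0.01 ± 0.26, and their TR and RA libraries overlapped.

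The sterol branch had the widest spread, with 6 of 9 enzymes higher in RA, 1 lower and a median log2 ratio of 1.18. FDFT1, the squalene synthase that commits farnesyl diphosphate to sterols, was at 47.4 and 44.1 RPKM in TR and at 149, 136 and 134 RPKM in RA. Its log2 ratio was 1.61 ± 0.17 (SE; adjusted p = 7.5e-05, limma). NSDHL, which helps to remove methyl groups from the sterol ring, was the lowest member in TR at 11.2 and 9.15 RPKM, and stood at 36.5, 28.3 and 27.2 RPKM in RA. With a log2 ratio of 1.58 ± 0.19 (SE), NSDHL went from the 37.2 percentile of tested genes in TR to the 80.6 percentile in RA.

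EBP, a sterol isomerase, gave a log2 ratio of 1.32 ± 0.27, DHCR7, the reductase of the last step, 1.25 ± 0.19, and the lanosterol demethylase CYP51A1 1.18 ± 0.18. SQLE, the squalene monooxygenase, was higher by 0.67 ± 0.25. Lanosterol synthase LSS and HSD17B7, a ketosteroid reductase, gave 0.31 ± 0.36 and -0.11 ± 0.16 and did not pass. TM7SF2, a sterol reductase, went the other way. It was at 135 and 142 RPKM in TR, second among the members after SCD, and at 50.2, 37.5 and 39.5 RPKM in RA, rank 16 of 28. Its log2 ratio was -1.72 ± 0.22 (SE; adjusted p = 0.0002, limma), with no overlap between the libraries.

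Of the 7 fatty acid enzymes 4 were higher in RA and none was lower, with a median of 0.85. ACLY, which makes cytosolic acetyl-CoA from citrate, had the highest ratio of the 28, 1.69 ± 0.26 (SE; adjusted p = 0.00057, limma), with 47.6 and 34.1 RPKM in TR and 159, 100 and 138 RPKM in RA. FASN, the fatty acid synthase, gave 1.26 ± 0.43 and was the least even member between replicates of TR and of RA. It was listed at 129 and 68.3 RPKM in TR and at 363, 148 and 212 RPKM in RA, so that the groups stayed apart but their spreads were wide. SCD gave 1.20 ± 0.27 and the palmitate elongase ELOVL6 0.85 ± 0.16. The carboxylase ACACA, at 0.09 ± 0.17, and the polyunsaturated fatty acid desaturases FADS1 and FADS2, at -0.63 ± 0.32 and -0.38 ± 0.21, did not pass.

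The 4 regulators did not share a direction. SREBF2, the SREBP gene most tied to cholesterol synthesis, was at 50.2 and 38.2 RPKM in TR and at 86.7, 102 and 103 RPKM in RA, a log2 ratio of 1.14 ± 0.19 (SE; adjusted p = 0.001, limma). SREBF1, more tied to fatty acid synthesis, was at 67.8 and 55.6 RPKM in TR and at 45.4, 35.8 and 36.4 RPKM in RA, a ratio of -0.66 ± 0.18 (SE; adjusted p = 0.013, limma). In neither gene did the libraries overlap, but with centred libraries the ratio of SREBF1 was 0.02. INSIG1 gave 0.54 ± 0.26 and SCAP 0.20 ± 0.18, and neither passed. STARD4 was higher in RA by 1.59 ± 0.22 (SE; adjusted p = 0.00032, limma).

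Several of these calls lay near the threshold and were lost when a library was left out, although all their ratios kept their sign. FDPS lost its call with any of the 7 libraries left out, with adjusted p between 0.053 and 0.082 in limma and ratios from 0.41 to 0.53. SQLE lost it without RA replicate 2 or 3 or either TR library (0.10 to 0.19), and HMGCS1 without RA replicate 2 or either TR library (0.059 to 0.084), with ratios over all omissions from 0.53 to 0.87 and from 0.54 to 0.64. FASN moved more, from 0.81 to 1.72, and lost its call without RA replicate 1 or 3 or either TR library (0.05 to 0.28). MVD lost it without TR replicate 1 or 2 (0.058 and 0.092), EBP without TR replicate 2 (0.05) and SREBF1 without TR replicate 1 (0.079), which left TM7SF2 as the only member called lower. Calls over all genes also fell without TR replicate 1, from 2743 to 2166 higher and from 6870 to 5763 lower.

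The next question was how polysome-associated mRNA compares with mRNA abundance, the translation index log2(TA/RA). This comparison uses the same RA libraries as the one above, here as the denominator, so the ratios of both are given side by side and no relation between them is drawn. In limma 6 members were called higher in TA than in RA, against 6.66% of the 14305 genes tested, and 4 were called lower, against 29.2%. The median log2 ratio was 0.28 for the members and -0.37 for all genes tested. It was -0.28 over the 10825 genes with a mean of at least 1 RPKM in every parameter. The 6 higher members were all mevalonate or sterol branch enzymes, and the 4 lower were 2 fatty acid enzymes, SREBF2 and STARD4.

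DHCR7 had the highest ratio. It was at 106, 111 and 135 RPKM in RA and at 214 and 245 RPKM in TA, a log2 ratio of 0.97 ± 0.19 (SE; adjusted p = 0.0078, limma) or 1.96-fold. FDFT1, with the 3 RA values given above, was at 270 and 257 RPKM in TA, a ratio of 0.91 ± 0.17 (SE; adjusted p = 0.0071, limma). In both genes the lowest TA library was far above the highest RA library. ACAT2 was at 54.8, 53.7 and 50.5 RPKM in RA and at 96.5 and 96.1 RPKM in TA, a ratio of 0.86 ± 0.16 (SE; adjusted p = 0.0069, limma). For NSDHL, TA stood at 57.7 and 52.6 RPKM and the ratio was 0.85 ± 0.19 (SE; adjusted p = 0.013, limma).

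FDPS and HSD17B7 completed the group that was higher in TA. FDPS was at 115, 103 and 97.2 RPKM in RA and at 171 and 162 RPKM in TA, a log2 ratio of 0.67 ± 0.17 (SE; adjusted p = 0.02, limma). HSD17B7 was at 18.5, 17.0 and 16.3 RPKM in RA and at 29.7 and 25.0 RPKM in TA, a ratio of 0.66 ± 0.16 (SE; adjusted p = 0.019, limma). The libraries did not overlap in either gene. All 7 mevalonate enzymes had ratios above 0, from 0.27 ± 0.18 for IDI1 upwards, and 2 of 7 were called. In the sterol branch 7 of 9 ratios were above 0 and 4 were called, while TM7SF2 at -0.26 ± 0.22 and LSS at -0.14 ± 0.36 overlapped between RA and TA.

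The fatty acid enzymes had a median log2 ratio of -0.19, which became 0.31 with centred libraries, and only ACLY, at 0.39 ± 0.26, was above 0 before centring. Of the 7, 2 were called lower, a share near the 29.2% of all genes tested, and 5 lay above the median of all genes, -0.37. ACACA, which makes malonyl-CoA, was at 29.1, 26.3 and 24.5 RPKM in RA and at 14.8 and 13.0 RPKM in TA, a ratio of -0.94 ± 0.17 (SE; adjusted p = 0.0068, limma). ELOVL6 was at 35.8, 38.7 and 33.4 RPKM in RA and at 21.8 and 19.7 RPKM in TA, a ratio of -0.79 ± 0.16 (SE; adjusted p = 0.0085, limma). No TA library of these 2 genes reached the lowest RA library. FASN, SCD, FADS1 and FADS2 lay between -0.21 and -0.07 with overlapping libraries.

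Of the 4 regulators 0 were called higher and 1 lower in TA, near the 6.66% and 29.2% of all genes tested. Their median log2 ratio was -0.37, the same as that of all genes, and 0.14 with centred libraries, beside 0.13 for all genes. SREBF2 was at 67.8 and 57.3 RPKM in TA, below its 3 RA libraries, with a log2 ratio of -0.64 ± 0.19 (SE; adjusted p = 0.036, limma). SCAP was at 27.7, 27.1 and 25.8 RPKM in RA and at 18.7 and 18.6 RPKM in TA, and at -0.53 ± 0.18 it just missed the threshold (SE; adjusted p = 0.053, limma). INSIG1 and SREBF1 gave -0.21 ± 0.26 and 0.01 ± 0.18, with overlapping libraries. STARD4 was at 43.9, 64.0 and 63.7 RPKM in RA and at 30.4 and 27.9 RPKM in TA. Its ratio of -0.95 ± 0.22 (SE; adjusted p = 0.014, limma) was the lowest of the 28.

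Centring changed the lower calls of this comparison most. It moved the median of all genes from -0.37 to 0.13, and then 14 members were called higher and 0 lower, beside 19.0% and 9.81% of all genes. The ratios of ACACA, ELOVL6, SREBF2 and STARD4 stayed below 0, at -0.43, -0.29, -0.13 and -0.45, with adjusted p between 0.11 and 0.65 in limma. With single libraries left out, the calls of DHCR7, FDFT1, ACAT2, ACACA and ELOVL6 held each time. Without TA replicate 1 the higher count fell to 3, because FDPS, NSDHL and HSD17B7 lost their calls (adjusted p = 0.11, 0.081 and 0.12, limma), with ratios of 0.63, 0.79 and 0.53. Over all genes the higher calls fell from 953 to 198 of 14305 in the same setting, and the lower calls from 4173 to 1803. FDPS also lost it without TA replicate 2 (0.069) or RA replicate 3 (0.078), and HSD17B7 without RA replicate 3 (0.068). SREBF2 lost its call without RA replicate 2 or 3 or either TA library (0.074 to 0.18), and STARD4 without RA replicate 3 or either TA library (0.052 to 0.069), so that the lower count fell to 2.

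**Figure D2:**
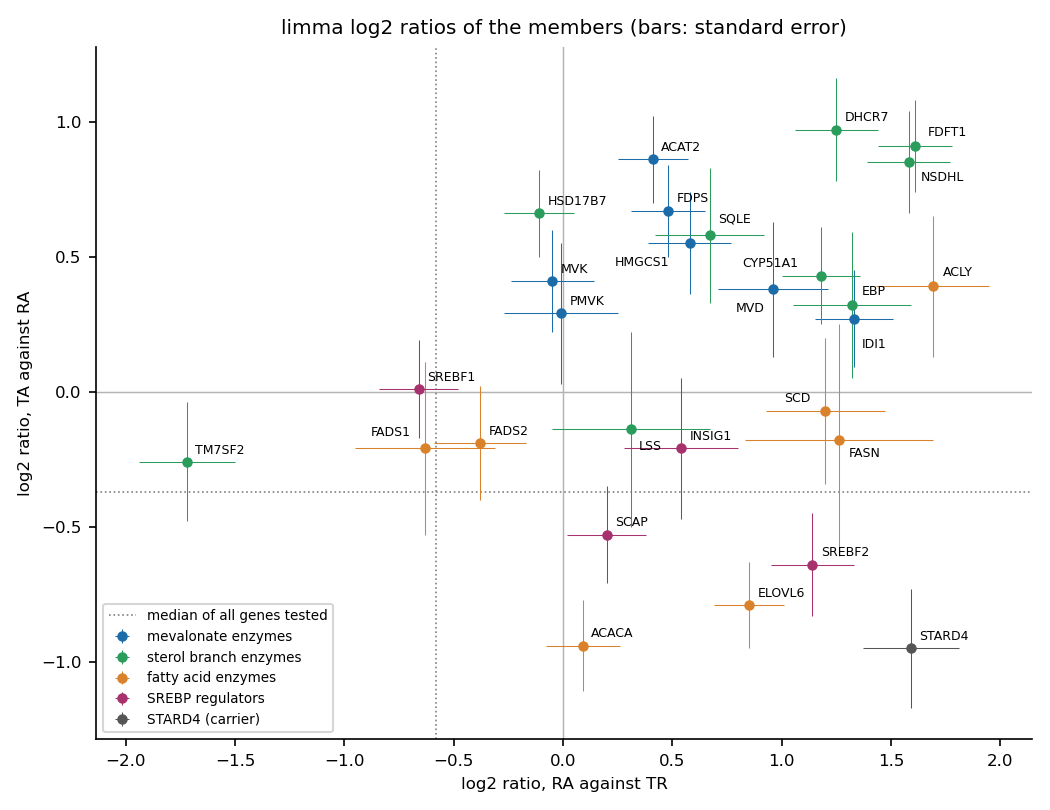
Log2 ratio of RA against TR on the x axis and of TA against RA on the y axis for each of the 28 genes, with limma standard errors as bars, colours for roles and dotted lines at the medians of all genes tested, -0.58 and -0.37. Both axes use the RA libraries; DHCR7, FDFT1 and NSDHL lie at the upper right and STARD4, SREBF2 and ELOVL6 at the lower right.

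Promoters of the members called in TA against RA were read from the RefSeq table of 300-base windows, from 250 bases before to 50 after the gene start, on build GRCh38.p14, while the expression values are on hg19. The table held 24 of the 28 members, and ACAT2, FDFT1, SQLE and FASN were not matched. The motifs searched on both strands were the sterol regulatory element core TCACNCCAC, the NF-Y box CCAAT, the E-box CACGTG and the Sp1 box GGGCGG. The sterol regulatory element core was found in the window of 1 of the 24, SREBF2, against 1.51% of 15843 coding genes, and that gene also held it with C at the open base, against 0.6%. The window is shown because SREBF2 encodes the factor that binds this element, with 30 bases 5′ to 3′ on the strand of the gene and the motif in capitals.
SREBF2, chr22:41832962-41832991, plus strand, motif from 133 bases before the start: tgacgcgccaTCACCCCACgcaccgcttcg

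CCAAT was found in 18 of the 24 members, 75.0%, against 42.1% of coding genes. The 24 members had 32 windows, and distances are to the start of the window that held the match. The match nearest to any such start, upstream of it, is shown for every member called in TA against RA that had one. This sets the 4 higher genes beside the 3 lower ones. Capitals mark the motif, written ATTGG where it lies on the other strand.
DHCR7 (higher in TA), chr11:71448422-71448451, minus strand: tccgcctccgATTGGcaggcaatcgctgac
FDPS (higher in TA), chr1:155308805-155308834, plus strand: ccgcgggcacATTGGgagttgtagtctaat
HSD17B7 (higher in TA), chr1:162790640-162790669, plus strand: gcggactgagATTGGagggatcagctcaga
NSDHL (higher in TA), chrX:152830969-152830998, plus strand: ccgagctgggCCAATcctcttggtggagga
ACACA (lower in TA), chr17:37299884-37299913, minus strand: atttgttttgATTGGatctcagaaattacc
SREBF2 (lower in TA), chr22:41832989-41833018, plus strand: tcgctcgcccATTGGctgagatgagcctgg
STARD4 (lower in TA), chr5:111512646-111512675, minus strand: cccgcgccagCCAATccgaacaagcgcacg

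These matches began 48, 51, 52 and 84 bases before the start in DHCR7, FDPS, HSD17B7 and NSDHL, and 136, 106 and 130 bases before it in ACACA, SREBF2 and STARD4. ACACA also had a match farther from the start of another window, at chr17:37359303-37359332, so the distances depend on the start chosen. The box was thus present in genes of both directions. GGGCGG was found in 23 of the 24 members, 95.8%, against 64.3% of coding genes, and CACGTG in 3, 12.5%, against 10.9%. A match is a description of these letters in this window and was not tied to binding.

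Over both steps, from transcription rate to polysomes, 15 members were called higher in TA than in TR, against 17.0% of the genes tested, and 3 lower, against 57.5%. The median log2 ratio was 0.86 for the members and -1.08 for all genes tested. Over the 10825 genes with a mean of at least 1 RPKM in every parameter it was -0.51, with 2336 called higher and 4935 lower in limma. Across the members log2 RA and the log2 ratio of TA against TR had a Pearson's r of 0.55 and a Spearman's rho of 0.61. The part of abundance in this ratio was not tested. The largest differences were in the sterol branch. FDFT1 was higher by 2.52 ± 0.19 (SE; adjusted p = 7.7e-06, limma), a 5.75-fold difference, NSDHL by 2.43 ± 0.21 and DHCR7 by 2.23 ± 0.21. Of the fatty acid enzymes 2 of 7 were higher, ACLY by 2.08 ± 0.28 and SCD by 1.13 ± 0.30, and the median of the 7 was 0.06.

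The 3 members called lower in TA than in TR were TM7SF2, ACACA and SREBF1. TM7SF2 was at 29.1 and 42.4 RPKM in TA, a ratio of -1.98 ± 0.24 (SE; adjusted p = 0.00011, limma), and was the only one still called lower with centred libraries. ACACA gave -0.85 ± 0.19 and SREBF1 -0.64 ± 0.20, and their ratios with centred libraries were 0.33 and 0.53. Centring moved the median of all genes to 0.09 and gave 25 members higher and 1 lower, beside 38.0% and 35.3% of all genes. With single libraries left out, HSD17B7 lost its call without TR replicate 1 or TA replicate 1 (adjusted p = 0.08 and 0.13, limma), SCD without TR replicate 2 or TA replicate 1 (0.058 and 0.059) and SREBF1 without TR replicate 1 or TA replicate 2 (0.086 and 0.075). STARD4, higher by 0.64 ± 0.24, lost it without either TR library, RA replicate 3 or either TA library (0.054 to 0.22).

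The enzymes were then set against the regulators within each library, which does not depend on how libraries are scaled. The median log2(RPKM + 0.1) of the 23 enzymes minus that of the 4 regulators was -0.64 and -0.43 in the TR libraries. It was -0.19, -0.03 and -0.27 in the RA libraries and 0.77 and 1.04 in the TA libraries. The regulators were thus the higher group in every TR and RA library and the enzymes in both TA libraries, and the 3 groups of libraries did not overlap. No p is given, because the genes are not replicates of an assay and were chosen with earlier results known.

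In the fitted ratios the median of the enzymes exceeded that of the regulators by 0.29 in RA against TR, by 0.75 in TA against RA and by 1.13 in TA against TR. Over pairs of single libraries the differences ran from 0.24 to 0.50, from 0.52 to 0.84 and from 0.91 to 1.25. The first was the least steady, at 0.07 without RA replicate 2 and 0.46 without RA replicate 1. The levels of the enzymes were themselves uneven. Mevalonate and sterol branch enzymes minus fatty acid enzymes was -0.13 and 0.17 within the TR libraries, 0.75, 0.65 and 0.94 within the RA libraries and 1.64 and 2.33 within the TA libraries. The median of the fitted ratios went the other way in RA against TR, with 0.62 for the mevalonate and sterol branch enzymes and 0.85 for the fatty acid enzymes, a difference of -0.22 that was above 0 in 1 of 6 library pairs. It was 0.68 in TA against RA and 1.20 in TA against TR, above 0 in 6 of 6 and 4 of 4 pairs. In level, fatty acid enzymes minus regulators was below 0 in all 7 libraries, from -1.24 to -0.43. In ratio it was 0.47 in RA against TR, 0.18 in TA against RA and 0.05 in TA against TR, above 0 in 6 of 6, 5 of 6 and 3 of 4 library pairs.

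**Figure D3:**
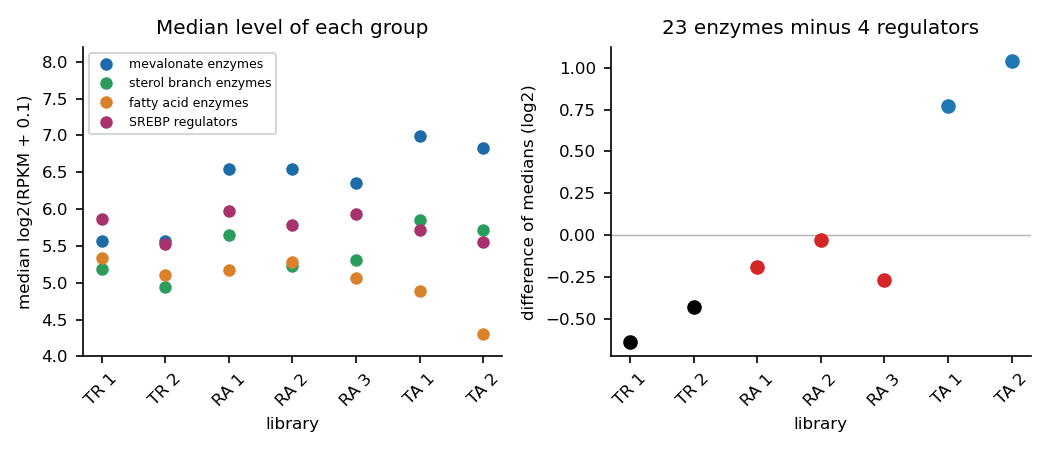
Left, median log2(RPKM + 0.1) of the 7 mevalonate, 9 sterol branch and 7 fatty acid enzymes and the 4 regulators in each of the 7 libraries. Right, the median of the 23 enzymes minus that of the 4 regulators in each library on the log2 scale, below 0 in TR (black) and RA (red) and above 0 in TA (blue).

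Exon length moved with the translation index among the members. The length implied by the RPKM values had a median of 1909 bases for mevalonate enzymes, 2665 for sterol branch enzymes, 4420 for fatty acid enzymes and 4628 for regulators. Across the 28 genes Pearson's r between log2 length and the log2 ratio of TA against RA was -0.56 and Spearman's rho -0.48, and over all 14305 genes tested they were -0.17 and -0.19. These correlations are across genes that share libraries, so they are descriptions with no p. FDFT1, at an implied 4387 bases, lay high for that length, and ELOVL6, at an implied 3392 bases, lay low. Their annotated canonical transcripts had 2035 and 6570 bases, so whether these genes stand apart depends on the length used. The relation of canonical length to the log2 ratio of TA against RA was not tested. The share of untranslated sequence in the canonical transcript gave an r of -0.25 with the same ratio. The part of length in the difference between enzymes and regulators was not tested.

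**Figure D4:**
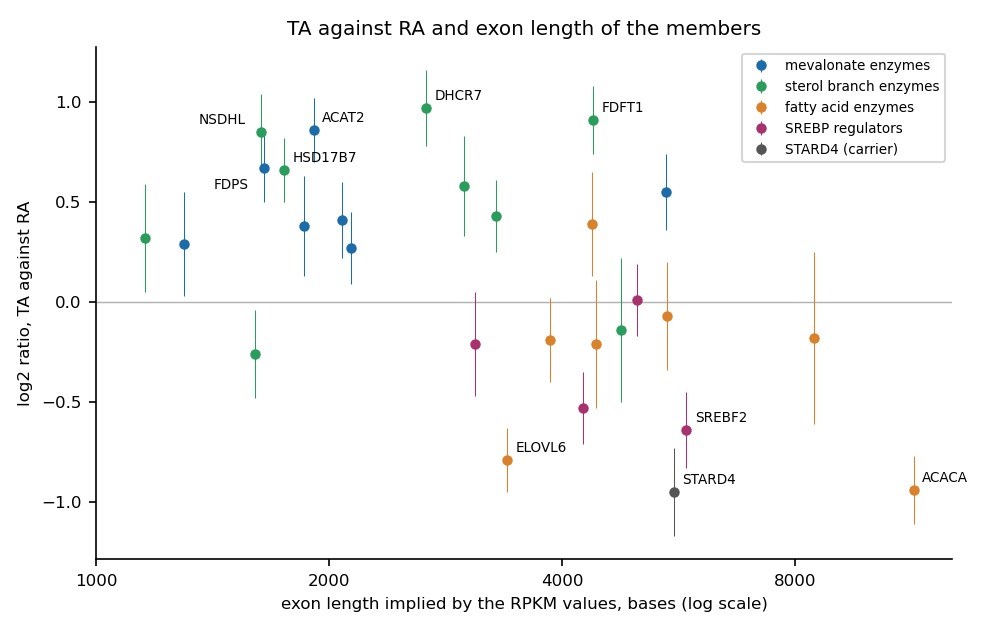
Log2 ratio of TA against RA, with limma standard errors, against implied exon length in bases on a log axis for the 28 genes, with the 10 called genes named. Short mevalonate and sterol branch genes lie mostly above 0, and the longest gene, ACACA at 11380 bases, lies at -0.94.

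Other genes near the pathway were read from 4 wider lists in the same fit. Their counts in TA against RA stand beside 6.66% of all genes tested called higher, 29.2% called lower and a median log2 ratio of -0.37. Of 17 tested genes of sterol sensing, SREBP processing and sterol-regulated turnover, 1 was higher and 7 were lower in TA than in RA, with a median log2 ratio of -0.49. INSIG2, the relative of INSIG1, was at 9.50, 11.9 and 10.2 RPKM in RA and at 3.72 and 5.35 RPKM in TA, a ratio of -1.21 ± 0.23 (SE; adjusted p = 0.0071, limma). PAQR3, a Golgi anchor of SCAP, gave -1.18 ± 0.18, and NFYC, a subunit of the CCAAT-binding factor, was the higher gene at 0.77 ± 0.17. Of 19 further isoprenoid and sterol enzymes, 5 were higher and 1 was lower, with a median of 0.19. CYB5R3, which passes electrons to sterol and fatty acid oxidases, gave 0.94 ± 0.25, the thiolase ACAT1 0.78 ± 0.20 and CYB5B -1.03 ± 0.32.

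Of 17 tested genes of cholesterol storage, transport and export, 2 were higher and 4 lower in TA than in RA, the latter near the share of all genes, with a median of -0.09. Those with the largest ratios were the lysosomal lipase LIPA at 0.63 ± 0.15 and the oxysterol-binding protein OSBP at 0.61 ± 0.19, and LRP1 at -1.71 ± 0.22 and STARD3 at -1.16 ± 0.17. Of 29 tested genes of fatty acid supply, elongation, desaturation and activation, 2 were higher, the mitochondrial enzymes MCAT and MECR, and 3 were lower, with a median of 0.08. Among the lower were MID1IP1, an activator of acetyl-CoA carboxylase, at -1.36 ± 0.22 and ACACB, the second acetyl-CoA carboxylase, at -1.19 ± 0.31. In RA against TR, where 19.2% of all genes were called higher and 48.0% lower, the lists had 7 higher and 4 lower of 17 for sterol sensing, 7 and 5 of 19 for the further enzymes, 4 and 6 of 17 for transport and 11 and 10 of 29 for fatty acid supply. In TA against TR, beside 17.0% and 57.5% of all genes, they had 6 and 7, 6 and 5, 5 and 8, and 10 and 9 in the same order.

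Some members share sequence with other annotated genes, which could move reads between them, since the strand setting and counting mode are not given in the sources used here. In GENCODE release 44 on GRCh37, 68.2% of the exon bases of CYP51A1 and 36.4% of those of EBP lay on the same strand as exons of other protein-coding genes. For TM7SF2 that share was 0.5%, 18 bases in common with VPS51. The part of this neighbour in the TR values of TM7SF2 was not tested. On the opposite strand, exons of other genes covered 37.7% of HMGCS1, 22.2% of ACAT2 (TCP1 and SOD2 among them), 18.6% of FDPS (RUSC1-AS1) and 15.0% of IDI1. FDPS has 8 annotated pseudogenes, IDI1 and CYP51A1 3 each, HSD17B7 2 and SCD 1. The annotation used for counting is not given in the sources used here, so their values are uncertain. How far these overlaps and pseudogenes moved the values was not tested. DHCR7 (chr11:71139239-71163914), NSDHL (chrX:151999511-152038273) and ACACA (chr17:35441927-35766927) had no exon overlap with another gene, and those of SREBF2 (chr22:42229109-42303310) and STARD4 (chr5:110831731-110848288) were overlapped by antisense genes over 9.1% and 2.2%, all in hg19 coordinates.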

How the data were processed

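TR, RA and TA of HCT116 cells came from 2 GRO-seq, 3 RNA-seq and 2 polysome libraries, which the paper calls biological replicates. The authors mapped reads to hg19 with TopHat, counted them over exons with HTSeq and deposited RPKM values per gene and library. The annotation, counting mode and strand setting are not given in the sources used here. Here, read numbers were recovered from the RPKM values only to give depth. For the 18187 genes with reads in at least 1 library, each value times exon length and library size came within 0.01 reads of a whole number. The lengths were worked out from these same values, so this is no independent check of them. A recovered length may be a divisor of the true one. Intervals were not computed, and depth covers counting error only.

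Of 20072 symbols, 16 had no values. The 14305 whose mean reached 1 RPKM in TR, RA or TA were tested on log2(RPKM + 0.1) by a two-sided limma fit (limma 3.58.1, R 4.3.3) whose eBayes step used a trend. All 7 libraries entered 1 fit with no further scaling, and Benjamini-Hochberg adjustment ran over all genes tested at a threshold of 0.05. Fold changes are on the log2(RPKM + 0.1) scale. On simulated RA against TR data over 14305 genes, limma called 27 of 100 genes changed by 1 on the log2 scale, 79 of 100 changed by 2 and 3 of 14105 unchanged genes. In the measured libraries 2743 genes were called higher and 6870 lower in RA against TR, far more than were changed there. Whether these rates hold for the measured libraries was not tested.

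Exon overlaps and positions came from GENCODE release 44 on GRCh37, and promoters from RefSeq. Python 3.11.15 (pandas 2.3.3, numpy 2.4.6, matplotlib 3.10.9) served for the remaining values and plots. The members and lists were chosen with earlier results of these data known. All members are named. Genes named from the wider lists come from a set chosen per list, comparison and direction. That set held up to 2 called genes with the largest log2 ratio and the same sign in every pair of libraries. Outside TA against RA not all genes of this set are named. Alternatives were pseudocounts of 0.01 and 1, other filters, centring, a replicate block, the compared libraries alone, no trend and each library left out.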

Additional observations from a re-analysis of the deposited data

How the results depend on the processing

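Of the 46 member calls, 25 held under every alternative run. All 46 held with pseudocounts of 0.01 and 1 and with a filter of 1 RPKM in every parameter, 45 without a filter and with only the 2 parameters compared, and 44 without a trend. TR had the smallest libraries, of 3391897 and 5629982 reads, and the fewest reads on a member there were 62. The planned edgeR test on recovered reads was not run, since the deposited unit is RPKM.

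Centring each library on its median gave, in RA against TR, 1 member lower and a member median of 1.30. In TA against RA it gave 14 higher, 0 lower and a median of 0.78, and in TA against TR 25 higher, 1 lower and a median of 2.04. Its log2 ratios that changed sign were, in RA against TR, 0.63 for MVK, 0.66 for PMVK, 0.56 for HSD17B7, 0.04 for FADS1, 0.30 for FADS2 and 0.02 for SREBF1. In TA against RA they were 0.36 for LSS, 0.24 for TM7SF2, 0.33 for FASN, 0.44 for SCD, 0.29 for FADS1, 0.31 for FADS2 and 0.30 for INSIG1. In TA against TR they were 0.33 for ACACA, 0.33 for FADS1, 0.61 for FADS2, 0.53 for SREBF1 and 0.85 for SCAP. Centring moves every gene of a library by the same amount.

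The replicate numbers were not shown to pair the libraries. The differences between replicates 1 and 2 correlated at 0.15 for TR and RA, -0.56 for RA and TA and 0.02 for TR and TA over 10825 genes. With the replicate number as a block, 12 members were higher and 1 lower in RA against TR, 1 higher (DHCR7) and 1 lower (ACACA) in TA against RA, and 13 higher and 3 lower in TA against TR. Over all 14305 genes the block gave 2083 higher and 5996 lower, 109 and 1387, and 2173 and 7754 in the same order, against 2743 and 6870, 953 and 4173, and 2439 and 8231 without it. In all 31 of the 46 calls were kept, and the ratios of PMVK in RA against TR and SREBF1 in TA against RA were 0.14 and -0.04.

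With each library left out in turn, members called higher and lower ranged from 11 to 15 and 1 to 3 in RA against TR, 3 to 6 and 2 to 5 in TA against RA, and 12 to 17 and 2 to 4 in TA against TR. The member medians ranged from 0.62 to 0.70, 0.16 to 0.30 and 0.63 to 0.97, and enzymes minus regulators from 0.07 to 0.46, 0.63 to 0.76 and 0.97 to 1.31. Ratios that changed sign, none of them called in the fit of all libraries, ranged in RA against TR from -0.16 to 0.06 for MVK, -0.25 to 0.22 for PMVK, -0.09 to 0.71 for LSS, -0.06 to 0.23 for ACACA and -0.03 to 0.44 for SCAP, whose highest value, without TR replicate 1, was called (adjusted p = 0.048, limma). In TA against RA the ranges were -0.38 to 0.20 for LSS, -0.53 to 0.01 for TM7SF2, -0.48 to 0.17 for FASN, -0.23 to 0.10 for SCD, -0.64 to 0.21 for FADS1, -0.38 to 0.01 for FADS2, -0.05 to 0.12 for SREBF1 and -0.48 to 0.07 for INSIG1. In TA against TR they were -0.22 to 0.57 for LSS and -0.02 to 0.14 for ELOVL6. The cause of these changes was not tested.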

Other observations

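Some genes of the wider lists were read in TR but were close to 0 in RA and TA. FAXDC2, a member of the fatty acid hydroxylase family, was at 31.1 and 40.5 RPKM in TR and at 0.164, 0.0592 and 0.0649 RPKM in RA. THRSP, a lipogenic regulator, was at 12.0 and 19.1 RPKM in TR, and was listed at 0 in RA replicates 1 and 2 and both TA libraries and at 0.0412 RPKM in RA replicate 3. ELOVL2, an elongase of polyunsaturated fatty acids, was at 3.40 and 4.40 RPKM in TR and between 0.0484 and 0.0872 RPKM in RA. VLDLR, from the list of cholesterol storage, transport and export, was at 3.16 and 2.44 RPKM in TR and between 0.0122 and 0.0535 RPKM in RA. All of these genes were called lower in RA than in TR in limma. None of the 28 synthesis genes had such a pattern, since each was above 8 RPKM in every library.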
